A study of Homo sapiens with 9 samples.

Results

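The cystatins described here are 8 genes, CST1, CST2, CST3, CST4, CST6, CST7, CSTA and CSTB, out of the 57905 gene identifiers in the deposited count table. Each was found by matching its symbol to 1 Ensembl identifier, and the genes were selected on earlier results of these same data, so their values are given as a description. No p-value is printed for them, and how many of them passed a test is stated only beside the share or number of all genes that did. They were measured in A549, an established human cell line from a lung adenocarcinoma, a cancer of gland-forming lung epithelium. The series compared 3 groups of 3 libraries, all from A549 cells grown in medium with 5% serum: controls whose titles say plko and whose treatment label says scrambled controls, a knockdown of AKR1B1 by a short hairpin RNA (labelled shAKR1B1), and a knockdown of SORD by the same means (labelled shSORD). A short hairpin RNA (shRNA) directs the degradation of a transcript that matches it. AKR1B1 is aldose reductase, which turns glucose into sorbitol, and SORD is sorbitol dehydrogenase, which turns sorbitol into fructose. Together they form the polyol pathway, whose relation to the aggressiveness of cancer cells is the subject of the series. Each target was lowered by 1 shRNA label, so the effect of the target and that of the hairpin cannot be told apart. Both knockdowns are compared with the same 3 control libraries.

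Cystatins are reversible inhibitors of papain-like cysteine proteases, the cathepsins that degrade proteins in lysosomes and, when secreted, in the matrix around cells. The stefins CSTA and CSTB are small and lack a signal peptide, so they act inside the cell. CST3 (cystatin C), CST6 (cystatin E/M), CST7 (cystatin F, made mainly by immune cells) and the S-type cystatins CST1, CST2 and CST4 (cystatins SN, SA and S, first known from saliva) are made with a signal peptide and enter the secretory pathway. Some secreted cystatins also inhibit the asparaginyl protease legumain through a separate surface.

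CST1, CST2, CST3, CST4 and CST7 lie on chromosome 20, CST6 on 11, CSTA on 3 and CSTB on 21. A stretch of the coding sequences of the 3 S-type genes is shown because their likeness bears on every count given for them. Each has 423 coding bases in GENCODE 29 transcripts, on the minus strand of chromosome 20. CST1 and CST2 shared 91.3% of them, CST1 and CST4 92.7%, and CST2 and CST4 92.4%. CST3 shared 69.6% with CST1, and CSTA and CSTB shared 59.0% with each other. The 3 S-type sequences were not all the same at 50 positions. The following lines show coding bases 262 to 351, counted from the start codon, where 1 position of 90 differed, marked by a capital.
CST1: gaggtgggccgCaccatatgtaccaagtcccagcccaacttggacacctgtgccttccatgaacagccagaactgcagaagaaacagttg
CST2: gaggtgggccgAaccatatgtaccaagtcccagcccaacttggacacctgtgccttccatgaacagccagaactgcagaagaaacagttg
CST4: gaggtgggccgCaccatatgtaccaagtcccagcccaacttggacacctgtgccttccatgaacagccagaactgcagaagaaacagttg
The read length is not given in the sources used here. Of the 50-base stretches of the CST1 transcripts, 23.6% also occurred in another gene's transcript, mostly that of CST4, and the shares were 30.2% for CST4 and 8.3% for CST2. Of 100-base stretches, 6.86% were shared for CST1, 8.13% for CST4 and none for CST2. No stretch of either length was shared for CST3, CST6, CST7 or CSTA, and for CSTB 0.125% of the 50-base stretches and none of the 100-base stretches. How reads that fit several genes were counted is not given in the sources used here, so reads may move between CST1, CST2 and CST4.

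Total counts were 32436524 to 43044456 per library. Levels are given as CPM, counts per 1e6 counts of a library size scaled with the TMM method. AKR1B1 measured 1395 to 1456 CPM in the controls, 145.9 to 167.3 with shAKR1B1 and 945 to 1135 with shSORD, and SORD measured 41.7 to 44.1, 30.2 to 31.0 and 8.176 to 8.997. The epithelial keratins KRT8 and KRT18 were abundant in every library, with at least 142832 and 99920 counts. Of 16 leukocyte markers, 14 had at most 10 counts in any library. Libraries labelled shSORD differed from one another more than the others did, with a chi-square per degree of freedom of 12.8 to 26.9 between pairs against 2.37 to 6.33 within the other groups.

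CST3 and CSTB held nearly all of the reads counted to the 8 genes. Together they held 97.1% to 99.4% of the summed CPM of the 8 genes in each library, a share that is not corrected for length. Among the cystatins, levels can be compared only per length. Per kilobase of merged exons, the control libraries held 39.7 CPM ± 2.27 (SD, n = 3) of CST3, 26.0 ± 0.647 of CSTB, 1.97 ± 0.420 of CST1, 0.225 ± 0.0776 of CST2 and 0.136 ± 0.0542 of CSTA. CST2 and CSTA were the neighbours in this order whose libraries overlapped, at 0.142 to 0.295 and 0.0741 to 0.174. CST6 and CST7 had 1 count each in the 3 controls together, and CST4 had none. Exon annotations that reach beyond the main transcript lower such values, and the shortest coding transcript, a length chosen after seeing the data, gave 176.5 for CST3, 55.1 for CSTB, 2.62 for CST1 and 0.249 for CSTA. In that version CSTA and CST2 changed places, with overlapping libraries, and the order of the others stayed as it was. By merged exons, the shAKR1B1 libraries held means of 37.2 CPM per kilobase of CST3, 18.7 of CSTB and 5.42 of CST1.

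**Figure D1:**
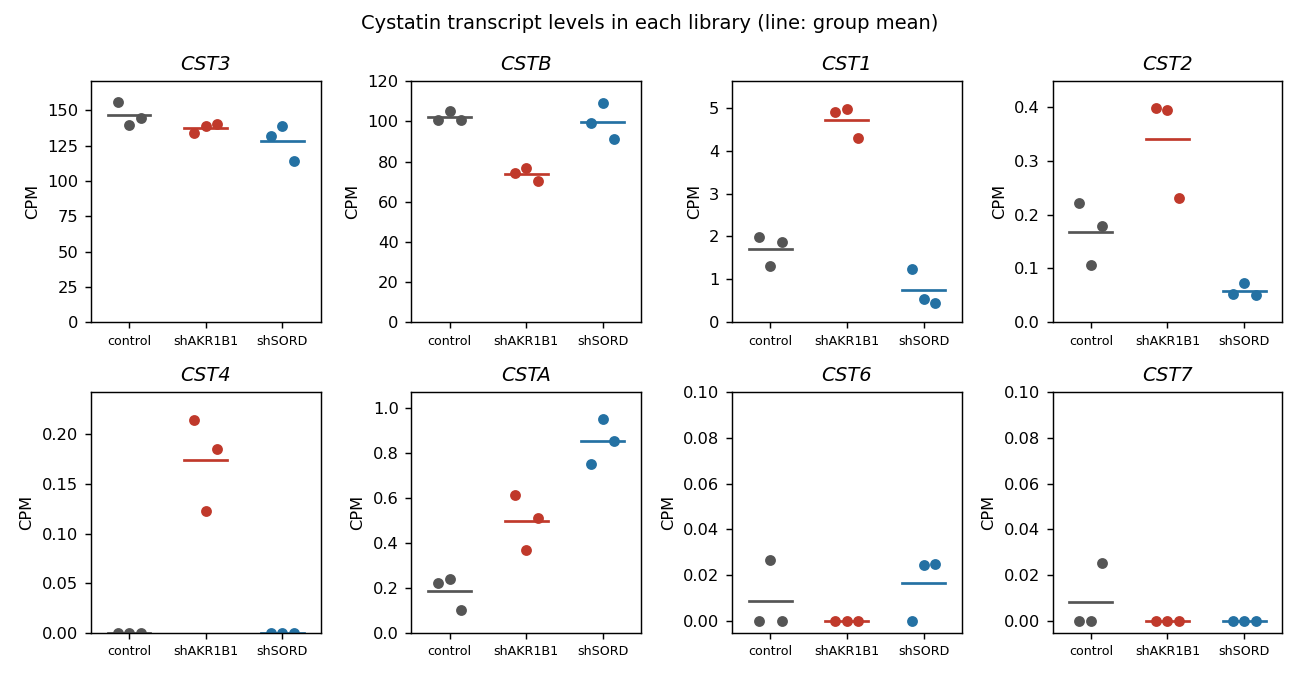
Level of each cystatin in CPM (vertical axis, linear, its own scale per panel) in the 3 libraries of each group (points), with the group mean as a line. CST1 and CST4 stood highest with shAKR1B1 and CSTA with shSORD, while CSTB was lowest with shAKR1B1, and CST6 and CST7 never exceeded 1 count in a library.

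The S-type genes were highest with shAKR1B1 and the stefin CSTA was highest with shSORD. CST1, CST3, CSTA and CSTB, 4 of the 8, passed the expression filter, which kept 16916 genes, and CSTA passed it through the 2 knockdown groups. With an adjusted p under 0.05 in edgeR's quasi-likelihood test as the criterion, shAKR1B1 against control called CST1 and CSTA higher and CSTB lower. In that comparison 27.8% of all genes tested were called higher and 29.6% lower. For shSORD against control CSTA was called higher and CST1 and CST3 lower, against 27.5% and 29% of all genes tested. For shAKR1B1 against shSORD CST1 was called higher and CSTA and CSTB lower, against 15.5% and 15.1% of all genes tested. Nothing is read from these counts, since the genes were selected with such results known. The call of CST3 ended without control replicate 1 or 3, shAKR1B1 replicate 2, or shSORD replicate 1 or 3, where its log2 fold change lay between -0.199 and -0.099. It also ended with libraries scaled by their totals (-0.13), with only the 2 groups compared in the fit (-0.18) and with a stricter expression filter (-0.15). In bulk RNA, more cells that express a gene and more of its RNA per cell cannot be told apart.

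CST1 (cystatin SN) showed the widest range among the members that passed the filter. It measured 1.99, 1.30 and 1.86 CPM in the controls, 4.90, 4.98 and 4.29 under shAKR1B1, and 1.24, 0.536 and 0.451 under shSORD. The 3 groups did not overlap, although the highest shSORD library lay just under the lowest control. The counts behind these levels were 49 to 73, 160 to 202 and 18 to 48. Against control, the CST1 level was 2.75-fold with shAKR1B1 (log2 fold change 1.46 ± 0.22, SE) and 43.2% of it with shSORD (log2 fold change -1.21 ± 0.29). Between the knockdowns it was 6.37-fold higher with shAKR1B1 (log2 fold change 2.67 ± 0.25). Without shSORD replicate 1, the library with the highest CST1 of that group, the difference between the knockdowns was 3.25 on the log2 scale and that of shSORD from control was -1.77. Without shSORD replicate 3 the latter was -0.94.

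CST2 (cystatin SA) had few reads and fell below the filter. Its counts were 8, 4 and 7 in the controls, 13, 16 and 10 with shAKR1B1, and 2, 3 and 2 with shSORD. The 3 groups did not overlap in counts, but the margins were narrow, with 3 in a shSORD library against 4 in a control and 8 in a control against 10 in a shAKR1B1 library. Summed over a group, shAKR1B1 held 2.00 times the control level (95% interval 1.13 to 3.66) and shSORD 0.349 times (0.124 to 0.867), intervals that are exact for Poisson counts and cover counting error only. Between the knockdowns the ratio was 5.72 (2.53 to 15.2).

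CST4 (cystatin S) was read in shAKR1B1 libraries and in no others. It had 7, 5 and 8 counts there and 0 in all 3 control and all 3 shSORD libraries. A group total of 0 allows up to 3 counts, 0.0265 CPM in the controls and 0.0251 CPM with shSORD, for counting error only. The 20 counts with shAKR1B1 were 0.172 CPM, at least 6.49-fold higher than in the controls and at least 6.85-fold higher than with shSORD when the 20 counts are taken as they stand and set against that limit over the group. With the counting error of the 20 counts included, the lower ends of the exact 95% intervals of the ratios were 4.81 and 5.07. The shared stretches shown above mean that a read of CST1 could be counted to CST4 or the reverse, and CST1 was itself highest with shAKR1B1. Whether that happened was not tested.

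CST1 made up most of the S-type counts in every library, from 88% to 96%. The summed S-type counts were 80, 53 and 80 in the controls, 180, 223 and 203 with shAKR1B1 and 50, 25 and 20 with shSORD. This sum is the same however the counted reads are divided among CST1, CST2 and CST4, and the 3 groups did not overlap in it.

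The other cystatin genes of the chromosome 20 cluster were nearly silent. CST8, CST9, CST9L, CST11 and CSTL1, whose known expression is mostly in the male reproductive tract, had 0 counts in all 9 libraries, and CST5 (cystatin D) had 1 count in 1 shSORD library. In the order of genes along the chromosome, CST3 is followed by CST4, CST1, CST2 and CST5, with pseudogenes between and after them. The pseudogene CSTP1, beyond CST5, had 1, 3 and 4 counts with shAKR1B1 and 0 in the other libraries, and the next pseudogene, ENSG00000236168, had 2 in each shAKR1B1 library and 0 elsewhere. These 2 pseudogenes were picked out after their values were seen, and their counts are too few for a fold. Farther along, SYNDIG1 did not pass the test (log2 fold change 0.48 ± 0.25, edgeR adjusted p = 0.11 with shAKR1B1, and 0.27 ± 0.25, edgeR adjusted p = 0.378 with shSORD), but with shAKR1B1 it did without the expression filter, with only the 2 groups compared and without shSORD replicate 2 (edgeR adjusted p 0.0173 to 0.0376, and 0.0173 to 0.383 over all alternatives). APMAP, next to CST7, fell in both (-0.36 ± 0.05, edgeR adjusted p = 1.94e-05, and -0.28 ± 0.05, edgeR adjusted p = 0.000209).

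**Figure D2:**
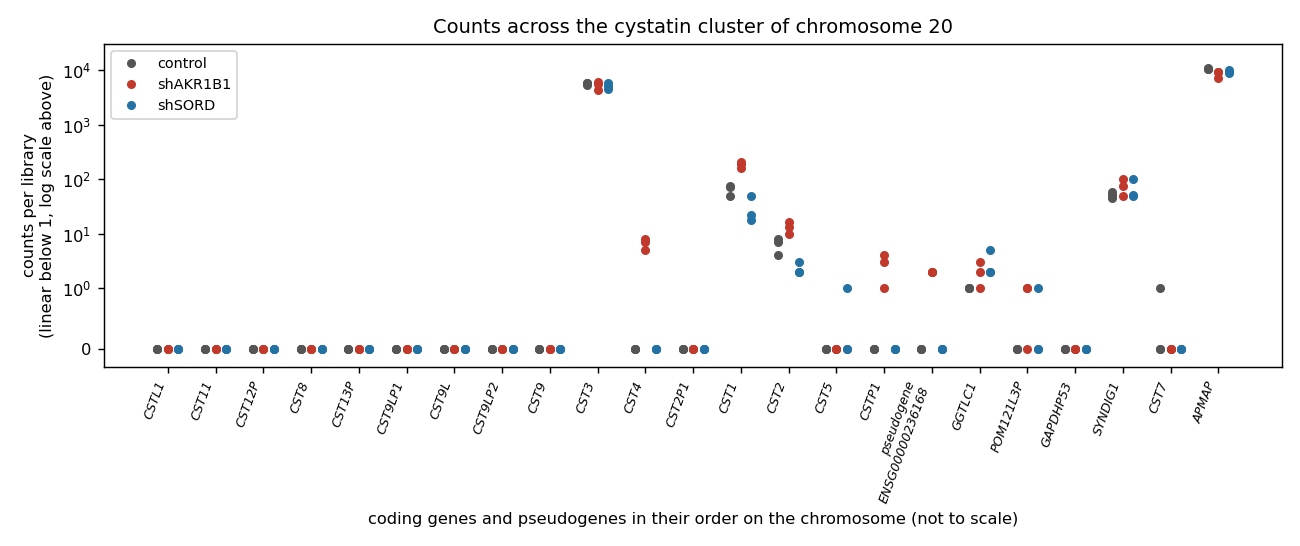
Counts per library (vertical axis, linear below 1 and logarithmic above) for coding genes and pseudogenes in their order along chromosome 20 (horizontal axis, not to scale), with 3 libraries per group as points. CST3 stood at 4371 to 6048 counts in all groups, CST1 and CST2 separated by group, and CST4, CSTP1 and ENSG00000236168 had counts with shAKR1B1 alone.

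CST3 (cystatin C), the main secreted cystatin of most tissues, lay near the same level in all groups. It measured 156.1, 139.8 and 144.6 CPM in the controls, 133.9, 138.7 and 140.3 with shAKR1B1, and 131.6, 138.8 and 114.0 with shSORD. The shAKR1B1 libraries overlapped the controls at the lowest control, and the shSORD libraries all lay below the controls, the closest by about 1 CPM. The log2 fold changes were -0.09 ± 0.07 (SE) with shAKR1B1 and -0.20 ± 0.07 with shSORD, and 0.10 ± 0.07 between the knockdowns. All 3 lay within the quartiles of all genes tested, which were -0.30 and 0.35 for shAKR1B1, -0.29 and 0.36 for shSORD and -0.18 and 0.19 between them.

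CST6 and CST7 were at the limit of detection. CST6 (cystatin E/M), an inhibitor of legumain and of cathepsins L and V best known from skin, had 1 count in 1 control library, none with shAKR1B1 and 1 in each of 2 shSORD libraries. CST7 (cystatin F), which is directed to lysosomes of immune cells, had 1 count in 1 control library and none elsewhere. A total of 0 allows up to 0.0258 CPM in the shAKR1B1 group, and no fold is given for either gene.

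CSTA (stefin A), an intracellular inhibitor known from squamous epithelia and keratinocytes, was scarce, lowest in the controls and highest with shSORD. Its levels were 0.221, 0.239 and 0.102 CPM in the controls, 0.613, 0.370 and 0.510 with shAKR1B1, and 0.751, 0.951 and 0.853 with shSORD. No 2 groups overlapped. The counts behind them were small, 4 to 9, 15 to 22 and 29 to 39. Against control the CSTA level was 2.62-fold with shAKR1B1 (log2 fold change 1.39 ± 0.36, SE) and 4.53-fold with shSORD (2.18 ± 0.32). With shAKR1B1 it was 57.8% of that with shSORD (-0.79 ± 0.26), a difference whose call ended without shAKR1B1 replicate 2 or 3 or shSORD replicate 2 and in DESeq2, with log2 fold changes of -0.82 to -0.61 without those libraries.

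CSTB (stefin B), the widely expressed stefin of the cytosol and nucleus, was lower with shAKR1B1 alone. It measured 100.7, 105.1 and 100.7 CPM in the controls, 74.1, 76.6 and 70.5 with shAKR1B1, and 99.3, 109.3 and 91.1 with shSORD. Every shAKR1B1 library lay below every other library, while the shSORD libraries spread to both sides of the controls. With shAKR1B1 the CSTB level was 72.1% of control (log2 fold change -0.47 ± 0.07, SE) and 73.8% of that with shSORD (-0.44 ± 0.07). With shSORD it was 97.7% of control (-0.03 ± 0.07), and this value ranged from -0.10 to 0.05 over the alternatives, so it had no stable sign. The ratio of CST3 to CSTB in CPM was 1.33 to 1.55 in the controls, 1.81 to 1.99 with shAKR1B1 and 1.25 to 1.33 with shSORD. The summed CPM of all 8 genes was 246.6 to 259.3, 214.1 to 221.1 and 206.5 to 249.7, and the 3 shAKR1B1 libraries lay below all controls in it.

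**Figure D3:**
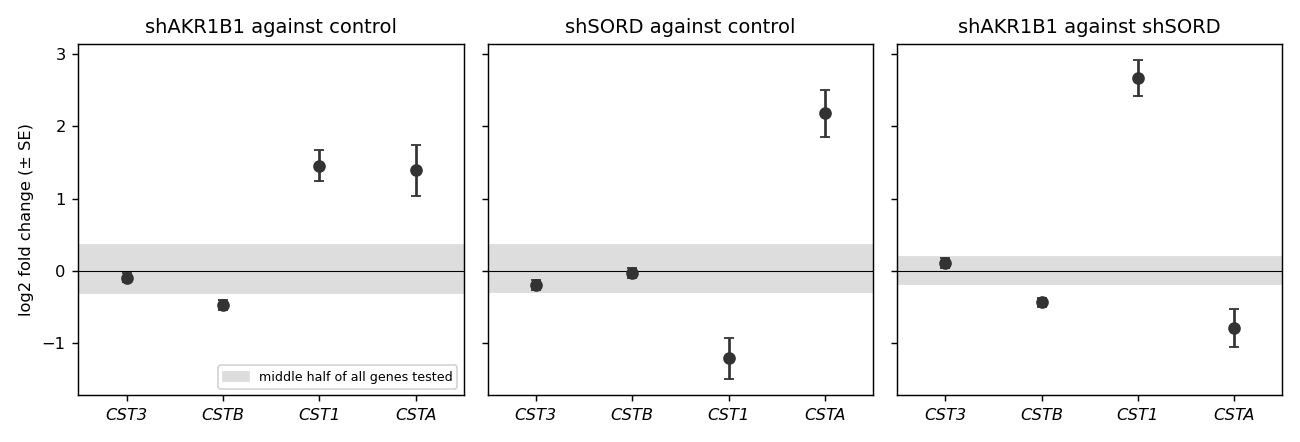
Log2 fold change (vertical axis, bars are ± SE) of the 4 cystatins that passed the filter in the 3 comparisons, with the span between the quartiles of all 16916 genes in grey. CST1 points up with shAKR1B1 (1.46) and down with shSORD (-1.21), CSTA points up in both, and CST3 stays inside the grey band.

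Outside the members, cystatin domains occur in plasma proteins made by liver, and 2 of these rose in both knockdowns. Of 10 further genes of the superfamily, 3 passed the filter, and KNG1 and AHSG passed it through the knockdown libraries (0 and 1 control library reached its minimum of 0.254 CPM). Passing in this way favours genes that are higher there, so neither the number that rose nor their adjusted p-values are support for a rise. AHSG (fetuin-A, a calcium-binding plasma glycoprotein) measured 0.221, 0.239 and 0.305 CPM in the controls, 2.02, 2.37 and 2.16 with shAKR1B1, and 2.46, 1.76 and 1.98 with shSORD. It rose by 3.08 ± 0.23 (log2, SE; edgeR adjusted p = 3.35e-08) and 2.99 ± 0.23 (edgeR adjusted p = 6.76e-08), and the knockdowns differed by 0.09 ± 0.16 (edgeR adjusted p = 0.724). Both groups of knockdown libraries lay far above the controls and overlapped each other. KNG1 (kininogen, the source of bradykinin, with cystatin domains that inhibit cysteine proteases) had 5, 3 and 6 counts in the controls, 14, 29 and 20 with shAKR1B1 and 51, 48 and 29 with shSORD. It rose by 2.10 ± 0.42 (edgeR adjusted p = 0.000639) and 3.08 ± 0.37 (edgeR adjusted p = 6.54e-06). The lower KNG1 with shAKR1B1 than with shSORD (-0.98 ± 0.28, edgeR adjusted p = 0.0143) lost its call without shAKR1B1 replicate 1 or 3 or shSORD replicate 1 (-1.25 to -0.81 and edgeR adjusted p 0.00176 to 0.0672 over its alternatives). FETUB did not pass the test against control (edgeR adjusted p = 0.331 and 0.305), and HRG had at most 4 counts in a library.

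The cysteine proteases that cystatins inhibit moved in both directions. Of 12 genes, 11 cathepsins and legumain, CTSW lay below the filter. With shAKR1B1 5 of the 11 tested rose, 4 fell and 2 did not pass the test (median log2 fold change 0.19), and with shSORD 4 rose, 2 fell and 5 did not pass (0.04). Between the knockdowns, 3 were higher with shAKR1B1, 4 were higher with shSORD and 4 did not pass (-0.15). Of all genes tested, 27.8% rose and 29.6% fell with shAKR1B1, 27.5% and 29% did so with shSORD, and 15.5% were higher and 15.1% lower with shAKR1B1 than with shSORD. The medians over all genes tested were -0.002, -0.002 and 0.01. The knockdowns are compared with the same control libraries, so the first 2 sets of values are not independent.

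CTSB and CTSL, the most abundant of these lysosomal endopeptidases in CPM, were lower with shAKR1B1. CTSB measured 350.6 CPM ± 4.11 (SD, n = 3) in the controls, 309.8 ± 13.5 with shAKR1B1 and 360.2 ± 30.6 with shSORD. It fell with shAKR1B1 (log2 fold change -0.18 ± 0.06, SE, edgeR adjusted p = 0.0208) but did not pass the test with shSORD (0.04 ± 0.06, edgeR adjusted p = 0.605), and the knockdowns differed (-0.22 ± 0.06, edgeR adjusted p = 0.0135). The first of these calls ended without control replicate 1 or 3 or shAKR1B1 replicate 3 (-0.17 to -0.14, edgeR adjusted p 0.0603 to 0.0919), with library totals (edgeR adjusted p = 0.081) and with the stricter filter (edgeR adjusted p = 0.0513), and the last without shAKR1B1 replicate 3 or shSORD replicate 1 (edgeR adjusted p 0.0691 and 0.0713). The ranges over all alternatives were 0.000867 to 0.0919 and 0.000162 to 0.0713. Without shSORD replicate 3 the CTSB value with shSORD was 0.12 (edgeR adjusted p = 0.0341, with a range of 0.0341 to 0.946 over its alternatives).

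CTSL fell in both knockdowns. It measured 298.3 CPM ± 7.70 in the controls, 205.9 ± 5.34 with shAKR1B1 and 239.8 ± 5.91 with shSORD, with no overlap between groups. The log2 fold changes were -0.54 ± 0.05 (edgeR adjusted p = 2.64e-07) and -0.32 ± 0.05 (edgeR adjusted p = 5.87e-05), and the level was lower with shAKR1B1 than with shSORD (-0.22 ± 0.05, edgeR adjusted p = 0.00286).

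CTSC showed the widest change of the family. This exopeptidase activates granule serine proteases, and cystatin F is known to regulate it. It measured 106.6, 106.9 and 105.1 CPM in the controls, 95.1, 93.7 and 94.8 with shAKR1B1, and 32.8, 26.5 and 27.5 with shSORD. With shSORD it was 27.2% of control (-1.88 ± 0.07, edgeR adjusted p = 4.89e-11). With shAKR1B1 the CTSC value was -0.17 ± 0.07 (edgeR adjusted p = 0.0444), a call that ended without any 1 of the 6 libraries compared (-0.17 to -0.14, edgeR adjusted p 0.0905 to 0.144). It also ended in DESeq2 (adjusted p = 0.0538), with DESeq2's size factors in edgeR (adjusted p = 0.058), with library totals (0.133) and with the stricter filter (0.0863), and the adjusted p over all alternatives was 0.00152 to 0.144. Between the knockdowns CTSC was higher with shAKR1B1 by 1.71 ± 0.07 (edgeR adjusted p = 3.59e-10), so the size of the change differed between them.

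LGMN (legumain) measured 67.9 CPM ± 0.418 in the controls, 79.8 ± 0.892 with shAKR1B1 and 69.6 ± 2.44 with shSORD. It rose with shAKR1B1 (0.23 ± 0.05, edgeR adjusted p = 0.00137), did not pass with shSORD (0.04 ± 0.05, edgeR adjusted p = 0.576), and was higher with shAKR1B1 than with shSORD (0.20 ± 0.05, edgeR adjusted p = 0.00937). CTSV, a close relative of CTSL, was also highest with shAKR1B1. Its log2 fold changes in the same comparisons were 0.37 ± 0.08 (edgeR adjusted p = 0.00077), -0.06 ± 0.08 (edgeR adjusted p = 0.56) and 0.42 ± 0.08 (edgeR adjusted p = 0.000591). LGMN and CTSV were thus higher with shAKR1B1 than in either other group.

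CTSS, known from antigen-presenting cells, rose in both knockdowns and more with shSORD. Its mean was 21.1 CPM in the controls, 26.8 with shAKR1B1 and 35.4 with shSORD, which gave 0.34 ± 0.09 (edgeR adjusted p = 0.00455), 0.74 ± 0.09 (edgeR adjusted p = 5.1e-06) and -0.41 ± 0.09 between the knockdowns (edgeR adjusted p = 0.00235). CTSK, the collagen-degrading cathepsin of osteoclasts, rose with shSORD (0.78 ± 0.14, edgeR adjusted p = 0.000243), did not pass with shAKR1B1 (0.19 ± 0.15, edgeR adjusted p = 0.274) and was higher with shSORD than with shAKR1B1 (edgeR adjusted p = 0.00446). CTSS and CTSK thus stood highest with shSORD, as CSTA did. The means of CTSF, CTSO and CTSB were also highest there, with shSORD libraries that overlapped another group. Among cathepsins that are no cysteine proteases and no cystatin targets, the aspartic protease CTSD measured 326.1 CPM ± 10.8, 217.6 ± 10.1 and 312.9 ± 50.5, and fell with shAKR1B1 (-0.58 ± 0.09, edgeR adjusted p = 5.27e-05) but did not pass with shSORD (-0.06 ± 0.09, edgeR adjusted p = 0.586). The serine carboxypeptidase CTSA rose with shSORD (0.27 ± 0.06, edgeR adjusted p = 0.00109).

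**Figure D4:**
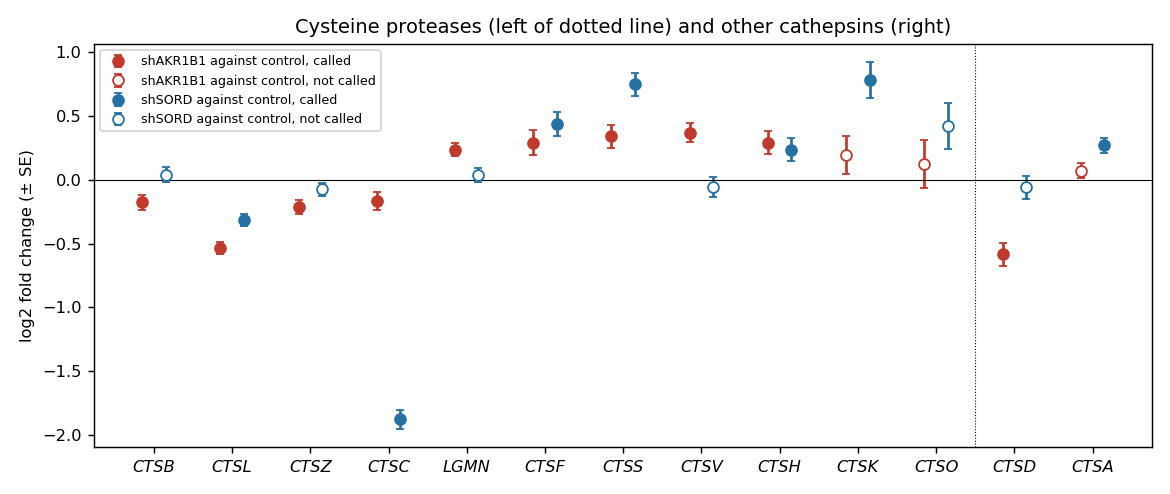
Log2 fold change against control (vertical axis, bars are ± SE) of the cysteine cathepsins and legumain, and of CTSD and CTSA to the right of the dotted line, with shAKR1B1 in red and shSORD in blue. Filled points passed the test, and CTSC with shSORD (-1.88) lies far below the rest.

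CSTA belongs to the proteins of the cornified envelope, the cross-linked shell of squamous cells, and several genes of that structure had no counts here. IVL, SPRR1A, SPRR1B, SPRR2A and KLK5 had 0 counts in all libraries, FLG and SPRR3 had at most 1, and 6 of 16 listed genes passed the filter. LOR matched no identifier and was not analysed here. Of these, 3 rose and none fell with shAKR1B1 (median log2 fold change 0.29), and 5 rose and none fell with shSORD (0.31), where 27.8% and 27.5% of all genes tested rose and 29.6% and 29% fell. PI3 (elafin, an elastase inhibitor) rose by 1.898 ± 0.14 (edgeR adjusted p = 4.11e-08) and 1.63 ± 0.15 (edgeR adjusted p = 3.25e-07), and the plakins PPL and EVPL by 0.56 and 0.23 and by 0.28 and 0.26. The EVPL call with shAKR1B1 ended without control replicate 1 or 2 or shAKR1B1 replicate 2 (0.19 to 0.22, edgeR adjusted p 0.0624 to 0.0852, and 0.000158 to 0.0852 over all alternatives).

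The S-type cystatins are best known from salivary glands, and several defining salivary genes had no counts here. STATH, HTN1, HTN3, AMY1A, PRB1, PRB2, SMR3B and MUC7 had 0 counts in all libraries. BPIFA1, an airway and nasal secretory protein, had 6, 7 and 8 counts with shAKR1B1 and 0 in the other libraries, as CST4 had counts with shAKR1B1 alone. Its salivary relative BPIFA2 had 0, 4 and 6 counts in the controls, 7, 10 and 8 with shAKR1B1 and 4, 2 and 4 with shSORD. The summed CPM of the 17 listed salivary genes was 0.318 to 0.484 in the controls, 7.52 to 8.67 with shAKR1B1 and 1.13 to 1.92 with shSORD. Most of this sum came from BPIFB1, PIP and LYZ, with means of 5.26, 1.79 and 0.576 CPM with shAKR1B1. The other 14 had at most 10 counts in any library. The 3 that passed the filter, BPIFB1, PIP and LYZ, are made by airway and other glands as well. They passed it through the knockdown libraries, with 0 control libraries at its minimum, and LYZ reached that minimum in 1 shSORD library only. A filter passed in this way favours genes that are higher there, so neither that all 3 rose nor an adjusted p-value given for them is support for a rise. BPIFB1, an airway secretory protein, had 3, 3 and 7 counts in the controls, 184, 207 and 217 with shAKR1B1 and 40, 28 and 24 with shSORD (5.48 ± 0.26, edgeR adjusted p = 2.41e-10, and 2.71 ± 0.36, edgeR adjusted p = 1.49e-05). With shSORD these 3 genes stood above control and CST1 stood below it. This contrast is a description only, since the filter and the selection of CST1 both depended on these values.

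Markers of epithelial cells, fibroblasts and leukocytes also moved with the groups. Of 7 epithelial markers tested, 6 rose and 1 fell in each knockdown (27.8% and 27.5% of all genes rose), ESRP1 having passed the filter through the knockdown libraries, with a summed level of 8686 to 8908 CPM in the controls, 12320 to 12940 with shAKR1B1 and 10750 to 12800 with shSORD. EPCAM rose by 1.78 ± 0.10 (edgeR adjusted p = 1.73e-09) and 2.35 ± 0.10 (edgeR adjusted p = 1.13e-10), KRT19 by 1.20 and 1.43, and CDH1 (E-cadherin) by 1.09 and 1.14. KRT7, named after its values were seen, was the marker that fell, from a mean of 2015 CPM in the controls to 1189 with shAKR1B1 (-0.76 ± 0.07, edgeR adjusted p = 3.07e-07) and 1744 with shSORD (-0.21 ± 0.07, edgeR adjusted p = 0.019). The KRT7 call with shSORD ended with library totals, with only the 2 groups compared, with the stricter filter and without control replicate 1 or 3 or shSORD replicate 1 or 3 (-0.20 to -0.12, edgeR adjusted p 0.0575 to 0.164, and 8.34e-05 to 0.164 over all alternatives). The 9 fibroblast markers summed to 16.2 to 17.8 CPM in the controls, 9.30 to 10.7 with shAKR1B1 and 35.4 to 57.0 with shSORD. With shSORD 5 of the 6 tested rose and none fell, where 27.5% of all genes rose and 29% fell. Of the 5, 4 passed the filter through the shSORD libraries, which favours genes that are higher there, so the count is no support. With shAKR1B1 1 of the 6 rose and 2 fell (27.8% and 29.6% of all genes). COL1A1 carried most of the sum, with -0.75 ± 0.14 (edgeR adjusted p = 0.000244) and 1.28 ± 0.12 (edgeR adjusted p = 7.32e-07), while DCN had at most 4 counts. THY1, named after its values were seen, fell with shAKR1B1 (-1.80 ± 0.24, edgeR adjusted p = 1.27e-05). It did not pass with shSORD (-0.45 ± 0.20, edgeR adjusted p = 0.0644). PDGFRA, below the filter, had 3 to 11 counts in the controls and 3 to 5 with either knockdown. COL1A2 had 4 to 11 counts in the controls, 1 to 7 with shAKR1B1 and 43, 217 and 70 with shSORD (3.79 ± 0.61, edgeR adjusted p = 9.63e-05). It was among the genes that passed the filter through the shSORD libraries, so its p-value is no support for a rise. The 16 leukocyte markers summed to 9.54 to 11.2, 6.89 to 8.33 and 4.64 to 6.24 CPM, nearly all of it CD14 and ITGAL, and CD3D, CD3E, CD48, CD53 and LCP2 had 0 counts. These 2 main markers did not move together. CD14 fell in both knockdowns (-0.83 ± 0.13, edgeR adjusted p = 7.75e-05, and -1.38 ± 0.14, edgeR adjusted p = 9.32e-07). ITGAL rose with shAKR1B1 (0.995 ± 0.16, edgeR adjusted p = 6.53e-05). With shSORD it did not pass (0.38 ± 0.16, edgeR adjusted p = 0.06), but it did with library totals and with the stricter filter (edgeR adjusted p 0.0326 and 0.0321). The part of these markers in the cystatin values was not tested.

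For each member past the filter, the genes with the most similar pattern were sought among 13218 genes, by the root mean square difference of centred log2 CPM over the 9 libraries. AQP3 (a water and glycerol channel) was nearest to CST1, at 0.392, with group means of 61.5 CPM in the controls, 113.2 with shAKR1B1 and 26.4 with shSORD, followed by MRAP2 (0.422) and the airway mucin MUC5B (0.426, with 276.6, 419.7 and 80.7 CPM). Their likeness to CST1 follows from how they were chosen. Nearest to CSTA were BCO2 (0.258, with 0.756, 1.65 and 3.66 CPM), CLIP3 (0.346) and the basement membrane collagen COL4A4 (0.349, with 21.4, 57.0 and 110.7 CPM). Nearest to CSTB were UAP1L1 (0.0352, with 13.4, 9.90 and 13.2 CPM), GTF2IRD1 (0.0483) and INTS9 (0.0508), and nearest to CST3 were AKT2 (0.0250), PTOV1 (0.0262) and TEX264 (0.0306). The smaller distances of the CSTB and CST3 neighbours go with the smaller spread of these members over the libraries, an SD of 0.239 and 0.122 on the log2 scale against 1.28 for CST1 and 1.03 for CSTA.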

How the data were processed

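RNA of 9 libraries of A549 cells was sequenced from poly(A)-selecting TruSeq stranded mRNA libraries, per the labels' protocols. The authors deposited whole-number counts of reads per Ensembl gene without normalization. Per the submitters' processing notes the tools were cutadapt 1.9.1, STAR 2.5.2b, featureCounts 1.5.1 and DESeq2 1.12.3, with genome build GRCh37. Annotation release, strand setting and treatment of multi-mapping reads were each not given in the sources used here, and counts of near-identical or overlapping genes are uncertain. Symbols matched 51996 of the 57905 identifiers. Gene order, lengths and coding sequences came from GENCODE 29, on another build, so no coordinates are given. Of 162 list entries, 2 matched no single identifier and were left out.

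Genes were tested with edgeR's quasi-likelihood test (version 4.0.16, R 4.3.3) on TMM-scaled libraries after filterByExpr with the groups, fitting all 9 libraries at once with a mean for each group, fold changes with a prior count of 0.125, and Benjamini-Hochberg adjustment over the 16916 genes of each of 3 comparisons. A gene was called at an adjusted p under 0.05, and "rose" and "fell" refer to calls. A common BCV (the variation between libraries of a group beyond counting noise) of 6.59% was found. Standard errors (SE) are the size of the log2 fold change over the root of F. The procedure was tested on simulated data. The series calls the 3 libraries of a group biological replicates, but nothing says that they were separate transductions, and p-values therefore reflect only how far these libraries spread, which may be technical. No batch is named in the labels, and no replicate pair differed by as little as counting noise.

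The members, the gene lists and the tests were chosen with earlier results of these data known. All 8 members, the other cystatin superfamily genes, CTSB, CTSL, LGMN and CTSD were named whatever their values. From each other list and each knockdown against control, up to 3 called genes were named, those with the largest change among genes with a mean of at least 50 counts and groups that did not overlap. Other names were chosen after their values were seen. Genes of like pattern were the 3 nearest per member with the same mean count and a prior count of 0.5. Alternatives were another size factor, library totals, no filter, a stricter filter (10 counts in 3 libraries and a mean of 50), DESeq2 1.42.0, only the 2 groups compared, a replicate block and leaving out each library.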

Additional observations from a re-analysis of the deposited data

How the results depend on the processing

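Over all alternatives, the counts of called genes stayed within 1.5 times the values given, except 2 counts of cystatins. Without the expression filter, 5 members were called between the knockdowns in place of 3, since CST2 and CST4 entered and were higher with shAKR1B1. With a stricter filter, at least 10 counts in 3 libraries or more and a mean of at least 50, 1 member was called with shSORD in place of 3, since CSTA, whose mean was below 50, was not tested and CST3 was not called, and the cause for CST3 was not tested. Of all genes, 5451 were called between the knockdowns without the filter, against 5186 with it. The stricter filter gave 8099 with shSORD, against 9565. Leaving out each library in turn gave 3 to 4 members called with shAKR1B1, 2 to 4 with shSORD and 2 to 4 between the knockdowns. Each count of 4 arose where CST2 passed the filter, so that 5 members were tested in place of 4, and was called. Nothing is read from these member counts, since the members were selected with such results known. For cysteine cathepsins and legumain the ranges were 6 to 9, 5 to 8 and 6 to 9, and for all genes 8481 to 10712, 8383 to 10127 and 3840 to 6731. No value changed its sign while called. Deviations of same-numbered libraries of different groups correlated at -0.0303 to 0.172, and at 0.0873 to 0.172 between shAKR1B1 and shSORD. Differently numbered pairs were not set beside them, so whether the replicate numbers pair the libraries was not settled. With a replicate block 9994, 9817 and 5643 genes were called, no cystatin call changed, and CTSO with shSORD passed the test (edgeR adjusted p = 0.0416, 0.0618 without the block, and 0.0114 to 0.296 over all alternatives), as did KRT19 between the knockdowns (edgeR adjusted p = 0.0283, with 0.0107 to 0.232 over all alternatives). Scaling by library totals moved the median of all genes by at most 0.065 on the log2 scale. Of the genes called, 54.3% were then higher with shAKR1B1, 57.4% with shSORD and 45.3% with shAKR1B1 against shSORD. With TMM scaling these values were 48.4%, 48.7% and 50.7%, so the shares of all genes called in each direction depend on the scaling. Calls of CTSF and CTSH against control also ended without 1 library: CTSF with shAKR1B1 without control replicate 2 or shAKR1B1 replicate 1 or 2, and CTSH without control replicate 2 or shAKR1B1 replicate 2 (with shSORD, without any control, shAKR1B1 replicate 1 or shSORD replicate 1 or 2). Depth limits CST2, CST4, CST6, CST7 and CSTA most, with at most 39 counts in a library.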

Other observations

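Other inhibitors and proteases of the same compartments were measured as well. Of 8 intracellular serpins of clade B past the filter, a family that inhibits serine proteases and, in some members, cathepsins, 6 were higher and 2 lower in shAKR1B1 cells (median log2 fold change 0.92), and 3 rose and 2 fell with shSORD (0.23). Of all genes tested, 27.8% rose and 29.6% fell with shAKR1B1, and 27.5% and 29% with shSORD. SERPINB3, SERPINB4 and SERPINB11 passed the filter through the knockdown libraries, with 0 control libraries at its minimum, so the serpin counts and medians are no support for a rise. SERPINB7 rose by 2.53 ± 0.17 (SE, edgeR adjusted p = 1.26e-08) and 1.25 ± 0.19 (edgeR adjusted p = 5.76e-05), and was higher with shAKR1B1 than with shSORD (1.28 ± 0.15, edgeR adjusted p = 9.9e-06). SERPINB8 fell in both (-0.86 and -0.74), and SERPINB1, an inhibitor of neutrophil elastase, rose in both (0.50 and 0.39). Of 8 genes of the calpain group, the cytosolic calcium-dependent cysteine proteases with their inhibitor calpastatin (CAST), 2 rose and 3 fell with shAKR1B1, and 3 rose and 1 fell with shSORD. These were 25% and 37.5% of them against 27.8% and 29.6% of all genes, and 37.5% and 12.5% against 27.5% and 29%. CAPN5 rose by 1.28 ± 0.11 (edgeR adjusted p = 2.58e-07) and 0.72 ± 0.12 (edgeR adjusted p = 9.63e-05). CAPN15 and CAPN2 fell with shAKR1B1 (-0.50 and -0.41). With shSORD the fall of CAPN15 (-0.26, edgeR adjusted p = 0.0355) lost its call in 8 of 16 alternatives (edgeR adjusted p up to 0.17). The rise of CAPN2 with shSORD (0.14, edgeR adjusted p = 0.0222) lost its call in 3 of 16 (edgeR adjusted p up to 0.0862). The rise of CAST with shAKR1B1 (0.16, edgeR adjusted p = 0.0191) was not called without control replicate 1 or shAKR1B1 replicate 1 (0.13 in both, edgeR adjusted p 0.0981 and 0.0961, with a range of 0.000392 to 0.0981 over its alternatives).

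Of 37 lysosomal genes, all past the filter, 12 were higher and 8 lower in shAKR1B1 cells (median log2 fold change -0.01), and 15 rose and 6 fell with shSORD (0.13), 32.4% and 21.6% of them against 27.8% and 29.6% of all genes, and 40.5% and 16.2% against 27.5% and 29%. The glycosidases IDUA and MANBA rose in both, by 0.84 and 0.77 with shAKR1B1 and by 0.74 and 0.84 with shSORD, and GLB1 rose by 0.22 and 0.54. NPC1, which exports cholesterol from lysosomes, fell by 0.78 with shAKR1B1 and 0.20 with shSORD, a difference of -0.59 ± 0.05 between the knockdowns (edgeR adjusted p = 8.92e-07). The medians over all genes tested were -0.002 in both comparisons, which share their control libraries.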
